A study of Caenorhabditis elegans with 2 samples.

Results

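The regions described here are the LIN-35 ChIP-seq peaks on the X chromosome of Caenorhabditis elegans that lie away from promoters. They were taken from the authors' pooled list of peaks and background on build ce11. A line of that list was a member when its summit lay outside every promoter window, taken from 1000 bp upstream of a protein-coding transcript start to 300 bp downstream of it. Its summit also had to lie over 100 bp from any tRNA, snoRNA or snRNA gene. By this rule 3279 of the 30000 pooled lines were members. The pooled list held 4549 lines on X, of which another 1145 lay in promoter windows and 125 lay near small RNA genes.

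ChIP-seq was done on whole young adults of strain YL468, in 2 biological replicates of 1 group, with no second condition to compare. The strain carries unc-119(ed3)III and the transgene vrIs93. That transgene places LIN-35:GFP:FLAG behind pMEX-5, followed by the LIN-35 3'UTR, and carries unc-119(+). The labels give the sex as pooled male and female and give no age. The tagged protein is driven by the promoter of mex-5, a gene of the germline, so its pattern need not be that of LIN-35 from its own locus, and whole animals mix all tissues. Whether the antibody was against LIN-35 or against the tag is not settled by the labels.

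LIN-35 is the worm's only pocket protein of the retinoblastoma family. It belongs to the DREAM complex, which represses cell cycle and germline genes and is brought to promoters by an E2F and DP pair and by LIN-54, a protein that binds CHR-like elements. The X chromosome of the worm has a system of its own. In XX animals the dosage compensation complex, which contains a condensin, is recruited to X at sites called rex and lowers transcription along the chromosome. Many rex sites hold copies of a short motif whose core is GCGCAGGG. The members were not compared with known rex positions here, so a match to the core does not make a peak a rex site.

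That core was found close to the summits of the strongest members. The authors' thresholded list, made from the pooled and replicate lists, held 19 of the members. Of these 19, 10 had the core within 100 bp of the summit, which is 52.6% (exact Clopper-Pearson 95% interval 28.9 to 75.6%). Among 93 autosomal peaks chosen by the same rule and held by the same list, 0 had it, which allows a share of up to 3.89% by the same interval. Thresholded X peaks in promoter windows had it in 2 of 9 cases (22.2%, 2.81 to 60%), an interval that overlaps that of the members. The members and motifs were chosen with earlier results of these data known, so these shares describe and do not test. The 14 core matches at these 10 members are printed below, because they show the letters that 10 of the 19 hold within 100 bp of the summit and the other 9 do not. Each is read 5′ to 3′ on the strand that carries the core, with the core in capitals and 11 bases on either side, on ce11 (WBcel235) with 1-based positions. Ranks are those of the pooled list by signal.
rank 28, X:11094114-11094143, minus strand: cgttttatatcGCGCAGGGagcttatgcat
rank 28, X:11094215-11094244, minus strand: gggaaccattcGCGCAGGGacacctcactg
rank 29, X:6296537-6296566, plus strand: atttacatttgGCGCAGGGggtcaccatag
rank 29, X:6296565-6296594, plus strand: agataggtatcGCGCAGGGaagatttaccg
rank 36, X:8036390-8036419, minus strand: aattttttatcGCGCAGGGacgtatgtcga
rank 36, X:8036424-8036453, plus strand: atttttccatcGCGCAGGGaacccttcgat
rank 55, X:2997112-2997141, minus strand: ttaaatttatcGCGCAGGGaggaagtagcc
rank 79, X:16682161-16682190, minus strand: aagaaaacatcGCGCAGGGaacatcaaatt
rank 105, X:4209255-4209284, minus strand: ttgccgctatcGCGCAGGGacacctctttc
rank 115, X:5429579-5429608, plus strand: cattaaatttaGCGCAGGGaggacgccgtt
rank 180, X:806663-806692, plus strand: gtgcgattatcGCGCAGGGgtgtttgttgc
rank 180, X:806739-806768, plus strand: taaaccgatacGCGCAGGGaaaaaaaaata
rank 274, X:2364888-2364917, minus strand: aaaataattaaGCGCAGGGatatatagtac
rank 422, X:13514547-13514576, plus strand: atacctttatcGCGCAGGGatattgaaatc

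The matches shared bases beyond the core, which the search did not use. The base before the core was C in 11 of 14 and the base after it was A in 12 of 14. Further upstream, T stood at the second base before the core in 12, A at the third in 9 and T at the fourth in 10. From the fifth base before the core outward, no base was shared by more than 7 of the 14. The centre of the core lay between 86 bp to the left and 95 bp to the right of the summit, and 9 of the 14 matches were within 50 bp. In 4 members there were 2 copies each.

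Values of single peaks come first. The signal is the authors' own value per peak, on a scale that is not stated, and replicate values are those of the replicate line that overlaps the pooled line. The member of highest signal, at X:11094101-11094346 between genes, had a pooled signal of 130.6, with 109.7 in replicate 1 and 21.5 in replicate 2. The peak at X:6296419-6296644 lay in an intron of mom-1, which encodes a Porcupine homologue needed for Wnt secretion, and had 125.4 (pooled), 96.9 (replicate 1) and 31 (replicate 2). It was the only one of the 19 to hold an E2F match as well. The peak at X:8036352-8036525 lay 4837 bp upstream of the nearest protein-coding start, that of xol-1, the switch gene of sex determination. Its signals were 105.4, 93.6 and 18.1 in the same order. All 3 held 2 copies of the core and stood at ranks 28, 29 and 36 of the pooled list.

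Next in rank among the members with the core was the peak at X:2997019-2997204, in an intron of Y41G9A.17, with 91 (pooled), 75.9 (replicate 1) and 13 (replicate 2). The peak at X:16682094-16682182, between genes and nearest to the start of F22H10.2, had 72, 55.4 and 18.2. A peak upstream of F20B6.9 at X:4209112-4209467 had 57.6, 42.4 and 15.3. In pks-1, a polyketide synthase gene, the peak at X:5429321-5429676 had its summit in a coding exon and signals of 55.1, 46.5 and 9.51. It was the 1 member of the 19 in a coding exon, and its core lay farthest from the summit. Weaker members completed the group. The peak nearest to the gtr-1 start, at X:806505-806860, had 43.6, 35.4 and 11. The peak at X:2364786-2365141, nearest to the start of T24D8.6 and beside the ligand-gated channel gene lgc-40, had 35, 32.6 and 4.14. The peak upstream of the collagen gene col-185, at X:13514412-13514767, had 28.2 in the pooled list and 26.2 in replicate 1, and no line of replicate 2 overlapped it.

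The 9 thresholded members without the core within 100 bp ran over much the same range of signal. Their pooled signals ran from 27.6 to 95 with a median of 49.1, against 28.2 to 130.6 with a median of 64.8 for the 10 with the core, so the 2 sets overlapped. In replicate 2 the medians were 9.51 without and 15.3 with the core. The highest without it, at X:9465827-9465963 between genes and nearest to ZK899.6, had 95, 86.8 and 9.51 in the pooled list, replicate 1 and replicate 2. The others above a pooled signal of 70 were nearest to F55G7.5 (85.8, 75.9 and 13), K02D3.1 (83, 75.2 and 7.69) and F19H6.5 (77.1, 61.6 and 16.1). The peak nearest to F19H6.5 held a core match just beyond the window, and widening the window to 200 bp raised the count to 11 of 19. The lower ones were nearest to T27A8.7 (49.1, 48.3 and 8.38), F56C3.1 (34.4, 27.6 and 10.9) and mxl-3 (27.6, 28.7 and 2.97), a transcription factor gene.

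A pair of these lay at 1 locus, at the non-coding RNA gene C30E1.9. The peak at X:16931279-16931634 had its summit inside that gene and signals of 41.6, 28.9 and 11.7. The peak at X:16929563-16929918 ended at the first bases of the gene and had 32.2, 29.7 and 7.87. Their summits were 1716 bp apart, the smallest gap among the 19. Further pooled lines at the locus, at ranks 879 and 1072, overlapped the same replicate lines.

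**Figure D1:**
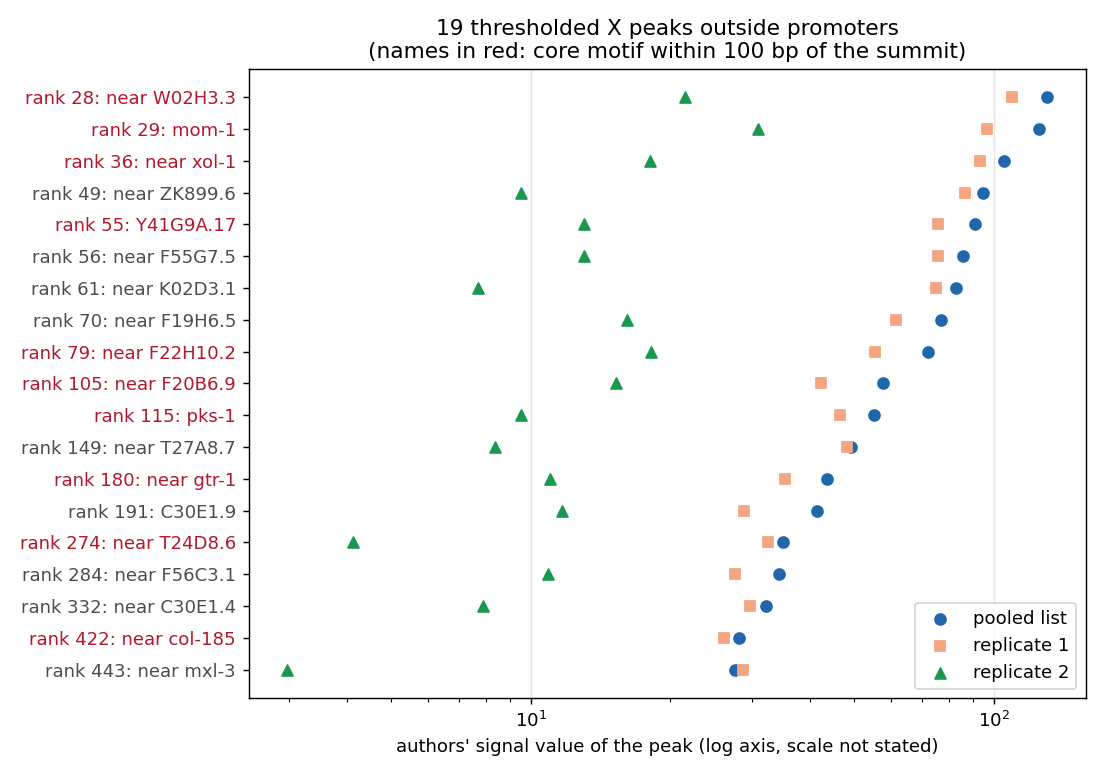
Authors' signal values (log axis, scale not stated) of the 19 thresholded members, one row per peak in order of pooled rank, with circles for the pooled list, squares for replicate 1 and triangles for replicate 2; names in red mark the 10 members with the core within 100 bp of the summit. Replicate 1 lies above replicate 2 in all 18 rows that have both, and the red names spread from rank 28 to rank 422.

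The 2 replicates ordered the 19 alike in part. All 19 were overlapped by a line of replicate 1 and 18 by a line of replicate 2. Over those 18 the correlation of log2 signal was 0.62 (Pearson) and 0.60 (Spearman), as a description over peaks that share both libraries and were selected with the replicate lists. Replicate 1 gave the higher signal in all of them, with ratios from 2.46 to 9.77 and a median of 5. The median ratio was lower in the other thresholded peaks, at 2.22 for autosomal ones outside promoters and 2.94 for those in X promoter windows. What each replicate contributed to the pooled signal was not measured. All 19 members were among the 550 highest lines of replicate 1, and 11 (57.9%) among the 550 highest of replicate 2. Of all 550 thresholded lines, the highest lines of replicate 1 overlapped 79.1% and those of replicate 2 overlapped 58.5%. Any line of replicate 1 overlapped 100% of the 550, and any line of replicate 2 overlapped 96.4%. The counts of members in replicate 2 were thus close to the general share. Taken alone, each replicate had the core at its strongest lines. Among the 550 highest lines of replicate 1, 24 lay on X outside promoters and 12 of them held it (50%, 29.1 to 70.9%). In replicate 2 the count was 6 of 19 (31.6%, 12.6 to 56.6%). On autosomes the same classes gave 0 of 93 in replicate 1 and 0 of 147 in replicate 2.

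Below the threshold the core became rare. It was near 1 of the 16 members at ranks 551 to 1000 (6.25%) and 2 of the 129 at ranks 1001 to 3000 (1.55%). At ranks 3001 to 10000 it was near 1 of 723, and at ranks 10001 to 30000 near 5 of 2392 (0.209%, 0.0679 to 0.487%). Windows of 201 bp laid every 200 bp along X outside promoters held it in 58 of 67403 cases (0.086%). The interval of the thresholded members lies above that share and above those of all 3 classes from rank 1001 down. Since the motifs were chosen with earlier results of these data known, this is a description and not a test.

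The other motifs gave no such excess among the strongest members. E2F letters (TTTCCCGC, TTTCGCGC, TTTGCCGC or TTTGGCGC, on either strand) were near 1 of the 19 thresholded members (5.26%, 0.133 to 26%), against 2.4% of the windows along X. CHR-like letters (TTTGAA or TTCGAA, whose reverse complements were also sought) were near 5 of 19 (26.3%, 9.15 to 51.2%), with 54.8% for the windows, which lies above that interval. The comparison holds for this width alone. Within 200 bp of the summit 17 of 19 (89.5%) had CHR-like letters, and no share along X was computed at that width. GAGA letters (GAGAGAGA) were near 0 of 19, against 0.982% of windows. Thresholded autosomal peaks outside promoters had E2F letters in 9 of 93 (9.68%) and CHR-like letters in 41 of 93 (44.1%). A match is a stretch of letters, and nothing about binding of a factor is read from it.

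**Figure D2:**
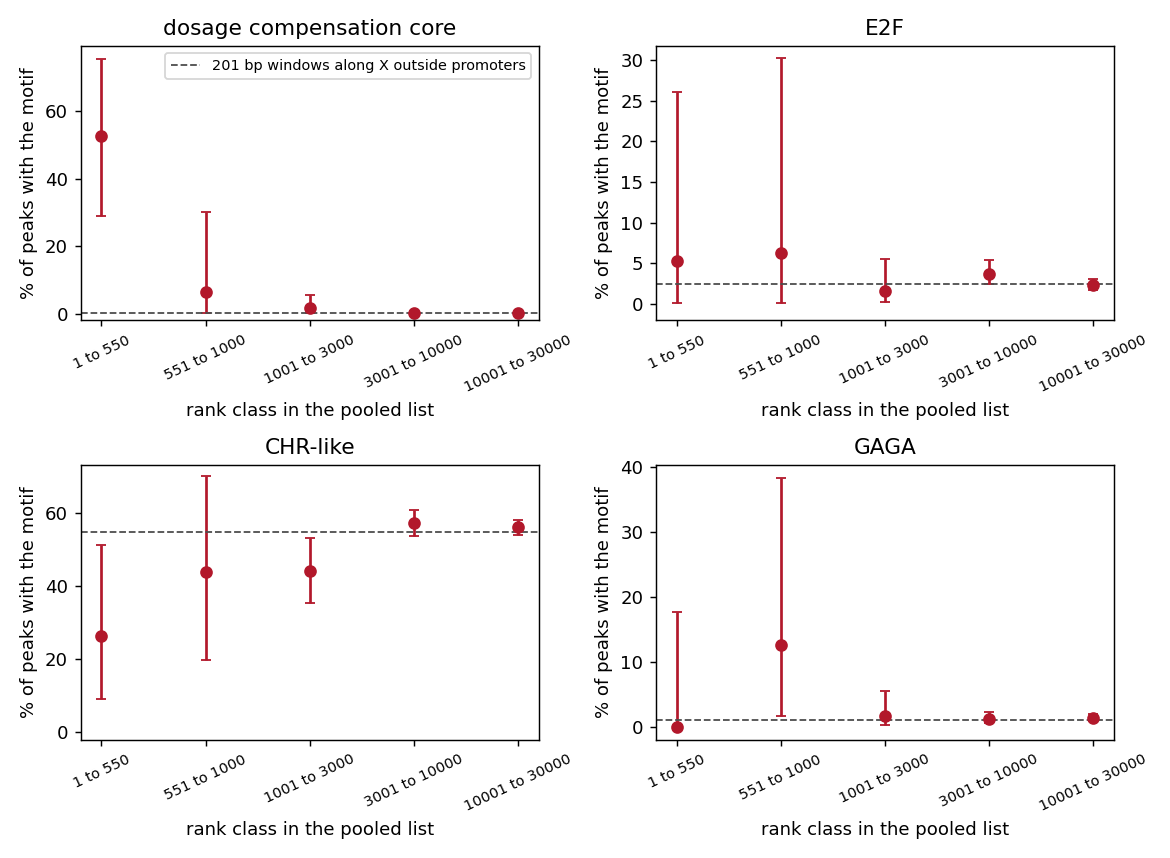
Percent of X peaks outside promoters with each of 4 motifs within 100 bp of the summit (vertical axes), by rank class in the pooled list (horizontal axes), with exact 95% intervals; the dashed line is the share of 201 bp windows along X outside promoters. The dosage compensation core falls from 52.6% in the highest class to 0.209% in the lowest, while CHR-like letters rise from 26.3% to 56.1%.

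Seen from the motif, the core occurred 81 times on X (4.57 per Mb) and 233 times on the autosomes (2.82 per Mb). On X, 27 matches (33.3%) lay within 100 bp of a pooled summit and 16 (19.8%) within 100 bp of a thresholded summit. On autosomes the counts were 20 (8.58%) and 1 (0.429%). That 1 match had its centre 99 bp from a summit close to a small RNA gene, which the rule leaves out, and ran past the end of the window. Of the 16 on X, 14 belonged to the 10 members above, and 2 lay in promoter windows, upstream of the insulin-like gene ins-39 and of nspc-17. Most X matches had no summit close by: 54 of the 81 had no pooled summit within 100 bp, and 26 lay over 1000 bp from any. A match over 100 bp from a summit can still lie inside a peak interval, as at the peak nearest to F19H6.5.

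With C before the core and A after it there were 17 matches on X, and 11 of them lay at a thresholded summit. X matches without both flanks numbered 64, of which 5 lay at a thresholded summit. The flanks were chosen from the thresholded matches themselves, so these counts restate that choice and test nothing. On autosomes 0 of 21 matches with both flanks and 1 of 212 others lay at a thresholded summit, too few to compare. The 6 X matches with both flanks and no thresholded summit within 100 bp are printed below in the same form, because they share the core and both flanks with matches at thresholded summits.
X:954900-954929, minus strand: taataaacaacGCGCAGGGagttatttcgg
X:2997287-2997316, minus strand: gagatcgtatcGCGCAGGGaggaagtatgg
X:5859921-5859950, minus strand: tccacacattcGCGCAGGGactaagccggg
X:8811094-8811123, minus strand: gaacacgcgacGCGCAGGGagagggacgca
X:11899355-11899384, plus strand: aacgaacactcGCGCAGGGacaccttctgc
X:16951625-16951654, minus strand: gctgaggaaacGCGCAGGGaaatccagatg

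The second of these is 190 bp from the summit of the peak in Y41G9A.17 and so lies beside a thresholded peak. The fourth is 7 bp from a pooled summit of rank 3723 and signal 11, in a promoter window. The first is also in a promoter window, and the remaining 3 lie 388 to 8288 bp from the nearest pooled summit.

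**Figure D3:**
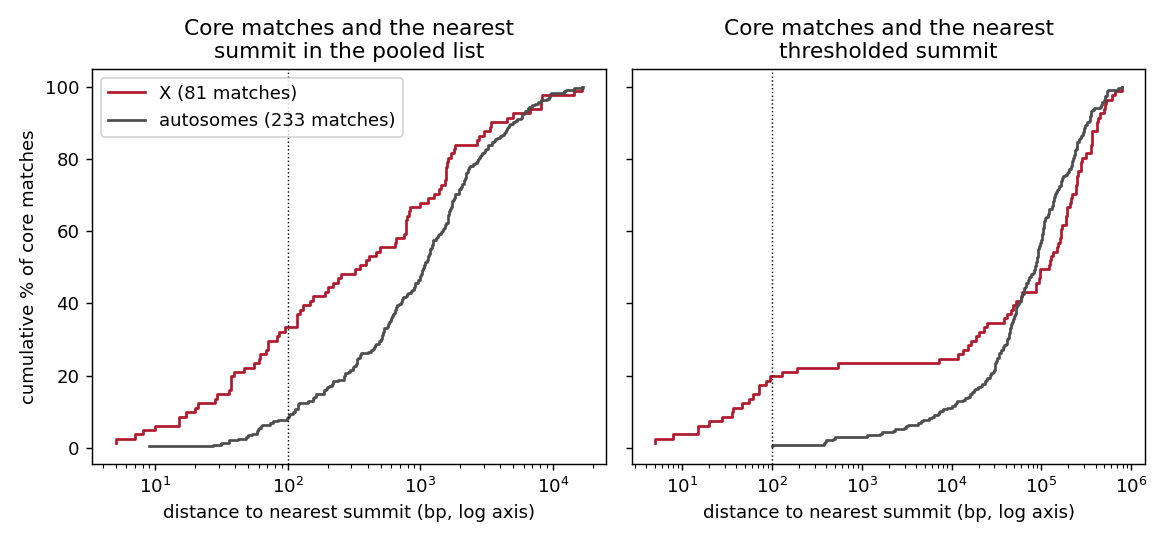
Cumulative percent of core matches (vertical axis) by distance to the nearest summit in bp (log axis), for 81 matches on X and 233 on the autosomes, with the pooled list on the left and the thresholded list on the right; the dotted line is 100 bp. At that distance the X curve stands at 33.3% and 19.8%, and the autosomal curve at 8.58% and 0.429%.

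The 9 thresholded members without the core were searched for other shared strings of 7 letters, after their values were seen. The rarest string held by 4 of the 9 was AGGCGAA, which was near 0 of the 10 members with the core and in 1.13% of the windows along X. GCAGGGA, which holds the last letters of the core with an A behind them, was near 3 of the 9 and in 0.727% of windows. Since all strings of this length were compared, these counts carry no test. The 4 stretches with AGGCGAA are printed with that string in capitals, as candidates to look at.
rank 49, X:9465870-9465899, plus strand: caagaaaatttAGGCGAAgggagagatact
rank 61, X:13700895-13700924, minus strand: cgtagacatttAGGCGAAgggcaatagtat
rank 70, X:12363134-12363163, plus strand: aacataagaatAGGCGAAcagtatgtcaat
rank 332, X:16929674-16929703, minus strand: cagctggagtcAGGCGAAgcggctgcgatg

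The strong members also differed in place from the rest. Of the 19, 15 had the summit between genes (78.9%, 54.4 to 93.9%), 2 in introns, 1 in a coding exon and 1 in a non-coding gene. Of all 3279 members 38.6% lay between genes, 35.5% in introns, 17.1% in coding exons, 5.46% in UTRs and 3.29% in other genes. The X bases outside promoters divide nearly the same way, with 38.3%, 32.7%, 21.1%, 4.15% and 3.81%. Autosomal thresholded peaks outside promoters lay between genes in 46.2% (35.8 to 56.9%) and in UTRs in 23.7% (15.5 to 33.6%). Of all autosomal lines outside promoters 27.5% lay between genes, as did 28.1% of autosomal bases outside promoters. The share between genes was thus higher among thresholded peaks on the autosomes as well. The X thresholded members had 0 of 19 in UTRs (0 to 17.6%). For both classes the X and autosomal intervals overlap. The nearest protein-coding start was 1026 to 15149 bp away, with a median of 2640 bp, and 6 of the 19 lay on its upstream side.

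**Figure D4:**
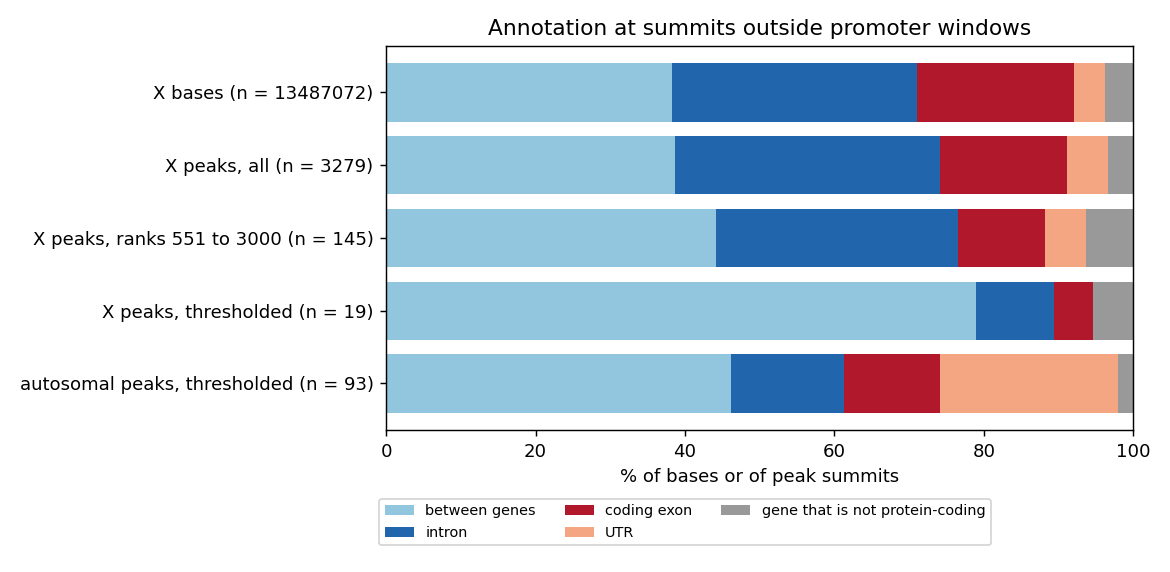
Percent of bases or peak summits (horizontal axis) by annotation class for X bases outside promoters, for all X members, for members at ranks 551 to 3000, for thresholded members and for autosomal thresholded peaks by the same rule. The bars for X bases and for all members are close, at 38.3% and 38.6% between genes, and the thresholded members reach 78.9%.

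As a class the members were weak. Their signal ran from 3.97 to 130.6 with a median of 5.9, and the thresholded list held 0.579% of them (0.349 to 0.903%), where it held 1.83% of all 30000 pooled lines. Autosomal lines by the same rule gave 93 of 16144, or 0.576%, and X promoter lines 9 of 1145, or 0.786%. The share was thus below the background and close to that of autosomal lines outside promoters. Lines of both replicate lists overlapped 441 members (13.4%, 12.3 to 14.7%), below the 21.5% of all pooled lines and the 18.1% of autosomal lines outside promoters. Members made up 3.45% of ranks 1 to 550, 3.56% of ranks 551 to 1000, 6.45% of ranks 1001 to 3000, 10.3% of ranks 3001 to 10000 and 12% of ranks 10001 to 30000. Over all ranks they were 3279 of 30000 lines.

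At the very top autosomal lines outside promoters were fewer than members. Of the 50 highest pooled lines 4 were members and 0 were autosomal lines outside promoters, and of the 100 highest 9 were members and 4 autosomal. Of all 30000 pooled lines 3279 were members and 16144 autosomal lines outside promoters. The members were thus not in excess among the highest lines. By the 550 highest the counts were 19 and 93. The median pooled signal of the thresholded members was 57.6 and that of the autosomal ones 30.9. This difference was seen in replicate 1 and hardly in replicate 2. Over the 18 members and 90 autosomal peaks with lines in both replicates, the medians were 51.8 and 21.3 in replicate 1. In replicate 2 they were 11.4 and 11. Mitochondrial lines made up 18 of the 50 highest.

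The sequence under the summits of all members was close in GC to the windows along X. Median GC within 100 bp was 34.3% for all members, 36.8% for the thresholded ones and 34.8% for the windows along X. In the same order, the median share of repeat-masked bases was 29.9%, 10.9% and 27.4%, and the median number of CG dinucleotides 5, 7 and 5. A 36-base string that occurs elsewhere in the genome was held by 0 of the 19 windows (0 to 17.6%). It was held by 12.3% of windows along X and 4.42% of all members, and both shares lie within that interval. Width was 356 bp in 99.8% of members, and 7 of the 19 thresholded ones were narrower, 5 of them with the core.

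Members lay along the whole chromosome. Bins of 1 Mb held 107 to 240, the lowest being the shorter last bin, or 185.3 to 304.5 per Mb of sequence outside promoters. The densest was the bin from 2000001 to 3000000 bp. The 19 thresholded members fell in 12 bins, with 4 between 16000001 and 17000000 bp and 3 between 13000001 and 14000000 bp. Bins with none had a highest signal of 14.8 to 22.2. The median gap between neighbours was 855208 bp for the thresholded members, the largest gap 2355776 bp, and the median over all members 3232 bp.

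The 5 highest members below the threshold had pooled signals of 21.2 to 24.3. The first, at rank 579 between genes and nearest to R11.3, held the core 39 bp from its summit and had 24.3 in the pooled list and 25.7 in replicate 1, with no overlapping line of replicate 2. The others were nearest to ZK470.2 (22.8), to Y15E3A.5 (22.2), to F09A5.3, in one of its introns (22.1), and to ftt-2 (21.2), a 14-3-3 protein gene. None of these 4 held the core. At the edge of the rule, 137 members within 100 bp outside a promoter window had a median signal of 6 and a highest of 17. The 145 X lines within 100 bp inside one had a median of 6.3 and a highest of 51.6, that of a thresholded peak upstream of fbxb-58.

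Among genes, 1712 of the 2731 protein-coding genes on X (62.7%) had a member within 2000 bp and 1077 (39.4%) had one inside the gene. Genes with a member inside were longer, with a median of 4058 bp against 1772 bp for the others. Thresholded members lay within 2000 bp of 20 genes (0.732%). Regulators of sex determination on X had a member within 2000 bp in 2 of 6 cases and a thresholded one in 0. The members were at fox-1, an RNA-binding X signal element, with a highest signal of 10.5, and at sdc-1, a zinc finger gene of sex determination and dosage compensation, with 4.87. The peak upstream of xol-1 lay beyond 2000 bp from it.

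Genes of vulval development and heterochromatin on X held weak members, and the counts of genes here stand beside 62.7% for all X protein-coding genes with a member within 2000 bp. All 4 of lin-15A, lin-15B, hpl-1 and lin-2, among them synMuv genes that act with lin-35, held one, with highest signals of 13, 4.85, 4.15 and 7.68. In muscle genes 5 of 7 had a member, the highest at unc-96, a muscle attachment gene, with 19.1 (pooled), 4.33 (replicate 1) and 12.7 (replicate 2). Of the intestinal genes 4 of 7 had one, led by the yolk protein gene vit-4 with 10.4, and 4 of 5 vitellogenin genes did. The timing gene lin-14 held 9 members, the highest at 18.7, with 10.4 in replicate 1 and 8.03 in replicate 2.

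Families of similar genes gave shares around the 62.7% of all X genes, apart from collagens at 6 of 27 (22.2%) and two-pore potassium channels at 9 of 10. Homeobox ceh genes had a member in 10 of 18, led by ceh-60 at 12.5, and nuclear hormone receptors in 15 of 23, led by nhr-27 at 17.1. Over its 102756 bp nhr-27 held 20 members, the most of any gene on X, followed by F54G2.1 with 15 and the calcium channel gene unc-2 with 12. Neuropeptide genes had a member in 22 of 34, led by nlp-61 at 14.6, and the leading potassium channel gene was twk-28 at 16.8. Acetylcholine receptor and ligand-gated channel genes had one in 14 of 24 and were the 1 protein-coding family with a thresholded member, the peak beside lgc-40. MicroRNA genes had one in 50 of 74. The highest there was the peak near cel-mir-2221, with 34.4 (pooled), 27.6 (replicate 1) and 10.9 (replicate 2), and then that of 22.1 beside the cel-mir-54, cel-mir-55 and cel-mir-56 cluster.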

How the data were processed

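The analysis used the authors' deposited narrowPeak lists of LIN-35 ChIP-seq: 1 for each of 2 replicates, 1 pooled and 1 thresholded, on ce11, and the same on ce10 for counts alone. Signal is the deposited value per peak, on a scale that is not stated, and the pooled list was ranked by it. The deposited −log10 q value was not used. Per the deposited text notes, each list was made with a control library (not analysed here). How reads were aligned, how peaks were called and where the IDR cutoff lay is not given in the sources used here. No read counts are in these files, so depth is unknown.

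Summits were placed on genes with Ensembl release 115 for WBcel235, and sequence came from the same assembly. A pooled and a replicate line matched when they overlapped by at least 1 bp. Motifs were sought on both strands within 100 bp of the summit. Shares carry exact Clopper-Pearson 95% intervals, which cover the counting of peaks only, and no p-value was computed. Genes were named at thresholded members by host or nearest start, for the 5 next members, and up to 4 of the highest per list. The members, lists and motifs were chosen with earlier results of these data known. The replicates are called biological in the labels. The code was tested on simulated data and left out 500 of 500 summits planted in promoters and found 500 of 500 planted cores. Python 3.11.15, numpy 2.4.6, scipy 1.17.1 and pandas 2.3.3 were used.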

Additional observations from a re-analysis of the deposited data

How the results depend on the processing

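Of 93 recomputed values over 12 results, 82 stayed within the interval of the value as reported, or for counts within 1.5 times of it, and 11 moved. Some of the 82 could not move, since counting repeated intervals once changes nothing where no interval is repeated. Intervals over 19 members are also wide. A core share of 31.4% in the 1000 highest pooled lines counted as staying within that of 52.6%. The number of members ran from 1885 to 3612 when 1 replicate's own list replaced the pooled one (1885 in the shorter list of replicate 2), and the number in the highest 550 lines from 19 to 24. Taking the 1000 or 3000 highest pooled lines gave 35 and 164. The share of thresholded members in both replicates fell from 94.7% to 47.4% when at least 50% of each interval had to be shared and to 57.9% in the highest lines of each. In the highest lines of both replicates the share was 43.8% for all 550 thresholded lines. It was 31.2% for the autosomal ones outside promoters. With at least 50% shared, no share over all lines was computed. The intron share was 10.5% among thresholded members. Median GC was 33.7% within 50 bp and 36.8% in thresholded members. The CHR-like share was 5.26% within 50 bp, 89.5% within 200 bp and 73.7% anywhere in the interval. The core share ran from 31.6% to 50% with 1 replicate's list, E2F from 5.26% to 8.33%, CHR-like from 25% to 31.6% and GAGA from 0% to 5.26%. The motif counts by replicate, by shorter and longer lists of the highest lines and over whole intervals were chosen after seeing the data. Bins of thresholded members alone gave no density, since 6 bins held none. On ce10, X held 35 thresholded and 4479 pooled lines. No paired analysis was possible because there is 1 group. With 19 thresholded members, shares are known only within wide intervals, and the 2 replicates differ in list length and signal.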
